A study of Mchenga conophoros with 13 samples.

Results

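mafb-rich spots were the spots of each spatial capture area in which mafb transcripts made up the largest share of the RNA. In each of 13 matrices, spots with at least 500 unique molecular identifiers (UMIs, tags that count a captured transcript once) were kept, the mafb UMIs of a spot were divided by its total UMIs, and the highest 5% with at least 1 mafb UMI were taken. This gave 321 mafb-rich spots and 6303 other spots, out of 6755 spots in all, of which 6624 had at least 500 UMIs. The spots were chosen by their measured mafb rate, so mafb itself is described and not tested between mafb-rich and other spots, and every other gene was compared between mafb-rich and other spots of the same male.

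The sections came from the telencephalon of 4 adult males (over 180 days old) of Mchenga conophoros, a Lake Malawi cichlid whose males shape sand into castle-like bowers to attract females. Both building males (building 1 and building 2) were labelled as building, and both control males (control 1 and control 2) as not building, before euthanasia, and the labels name no drug, transgene or strain for any of them. The males formed 2 pairs of a building and a control male matched by size, and the sources used here do not say which males formed a pair. Building 1 was represented by capture area C alone, and each of the other 3 males by capture areas A to D, which makes 5 capture areas of building males and 8 of control males. Each capture area is a field of barcoded Visium spots, and a spot takes up RNA from the tissue above it, which can be several cells, or parts of cells, of different types.

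mafb encodes a large Maf transcription factor of the basic leucine zipper class, which binds DNA together with a partner of the same class. In mice it is known for the patterning of the hindbrain, for the maturation of macrophages and as a marker of certain neurons, so that mafb in a brain section can mark either immune cells or neurons. The fish telencephalon has a pallium, whose projection neurons use glutamate and carry the vesicular transporters slc17a6 and slc17a7, and a subpallium, whose neurons mostly use GABA and are specified by factors such as dlx2, dlx5 and six3. In the feature table of the matrices mafb stands between rnf114 and dhx35. In the RefSeq annotation of the M_conophoros_male_GT1.1 assembly the gene between those neighbours is named mafba, and the gene named mafb there lies beside wwox, so the measured gene may be the one that annotation calls mafba.

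Total UMIs ranged from 673104 in capture area C of control 1 to 7356317 in capture area C of building 2, and the median per spot from 1219 to 11973. Spot barcodes mark positions on a slide and not cells, and 1631 of 2717 were used in more than 1 capture area. mafb-rich spots held a median of 7663 ± 2784 UMIs (SD, n = 4 males) and other spots 6409 ± 2819, and the median was higher in mafb-rich spots in 10 of 13 capture areas. RNA of the mitochondrial genome took 1.503% ± 0.208 of UMIs in mafb-rich spots and 1.83% ± 0.544 in other spots (SD, n = 4 males). RNA of ribosomal proteins took 8.07% ± 0.741 and 9.56% ± 0.831, and was lower in mafb-rich spots in 4 of 4 males. Depth and RNA content of a spot cannot be told apart from the number of cells in it.

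mafb was a low transcript, with 2162 UMIs among the spots kept, of which 1147 (53.1%) lay in mafb-rich spots. Of the 321 mafb-rich spots, 83 held 1 mafb UMI, 45 held 2 and 193 held 3 or more, and the highest count of any spot was 18. A further 751 spots had at least 1 mafb UMI but fell among the other spots. Over all spots kept, mafb reached 0.762 UMIs per 10000 UMIs in building 1, and the means over capture areas were 0.326 in building 2, 0.449 in control 1 and 0.405 in control 2. By capture area it ran from 0.0804 in area A of control 2 and 0.125 in area D of control 1, which were the lowest, to 0.610 in area D of control 2 and 0.762 in building 1. Control 2 thus held both the lowest area and the highest but 1, so its sections differed by more than the 4 males did.

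The rule drew its line at a different mafb rate in each capture area. The lowest mafb-rich spot of building 1 had 4.59 mafb UMIs per 10000 UMIs and the highest of its other spots 4.45. In area A of building 2 these values were 2.34 and 2.33, and in area B of control 2 both were 2.81. In area D of control 1 they were 0.623 and 0.616, and 17 of its 19 mafb-rich spots held a single mafb UMI. Area A of control 2 had 14 spots with any mafb, all of them taken by the rule, and 10 of these held a single UMI. In these 2 areas the rule took mostly spots with a single mafb UMI, and the count of called genes is also given without them.

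**Figure D1:**
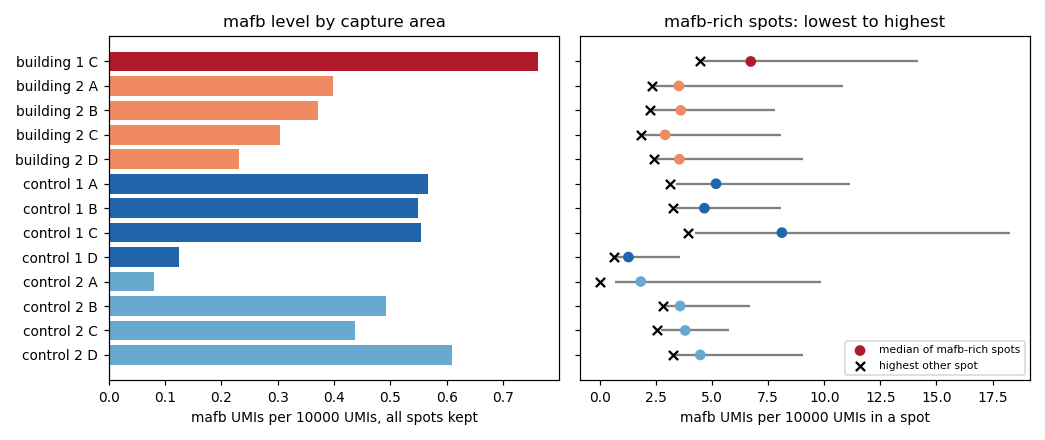
mafb by capture area. Left, mafb UMIs per 10000 UMIs over all spots kept, as bars by male and capture area; right, the lowest to the highest mafb-rich spot (grey line) with their median (coloured point) and the highest other spot (cross). The level ran from 0.0804 in control 2 A to 0.762 in building 1 C, and the 2 lowest areas, control 1 D and control 2 A, also had the lowest medians of mafb-rich spots (1.26 and 1.81).

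To ask in which part of the telencephalon the spots lay, each spot was classed by whether it held more UMIs of 7 pallial genes or of 9 subpallial genes. Of the 321 mafb-rich spots, 257 were pallial, 41 subpallial and 23 had equal counts. Per male, 79.4% ± 1.13 of mafb-rich spots were pallial against 56.3% ± 6.15 of other spots (SD, n = 4 males), and the share was higher in mafb-rich spots in 13 of 13 capture areas. The 4 males lay between 77.9% and 80.7% for mafb-rich spots and between 50.8% and 65.0% for other spots, so the ranges did not overlap. Summed over each list, pallial UMIs were higher in mafb-rich spots by 0.50 ± 0.15 on the log2 scale (SD, n = 4 males; higher in 12 of 13 areas). Subpallial UMIs had a log2 ratio of -1.21 ± 0.35 (lower in 12 of 13 areas).

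The difference between mafb-rich and other spots was tested for every gene on UMIs summed per male, with the male as a block (edgeR quasi-likelihood test, Benjamini-Hochberg adjustment over all genes tested, mafb left out). Of 12369 genes tested, 1738 (14.1%) passed an adjusted p of 0.05, 876 of them (7.08%) higher and 862 (6.97%) lower in mafb-rich spots. The number of calls moved with the settings and with the males included. Against the 3 other spots nearest in total UMIs, 1435 of 9921 genes (14.5%) were called. With spots thinned to 1000 UMIs and chosen anew there were 123 calls among 6700 genes tested (1.84%), 111 of them shared with the same sign. Only 1260 of the 1738 genes were tested there, and 159 of these had the opposite sign. Without building 2 there were 889 calls and without control 2 there were 927, and without the male as a block there were 1013. Without areas D of control 1 and A of control 2 there were 2402 calls, and 1710 of the 1738 genes were called again with the same sign.

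pomc, which encodes the precursor of melanocortins, corticotropin and beta-endorphin, led the genes that were higher. The copy LOC101475601 had 12.5 UMIs per 10000 UMIs in the mafb-rich spots of building 1, 11.6 in building 2, 3.21 in control 1 and 9.93 in control 2. In other spots it had 1.05, 0.577, 0.723 and 1.12 UMIs per 10000 UMIs in the same order. The lowest mafb-rich value was thus above the highest other value, and control 1 was the male closest to its other spots. The log2 fold change was 3.39 ± 0.22 (SE; adjusted p = 1.65e-08, edgeR), a fold of 10.48.

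ucn rose as well. It encodes urocortin, a peptide of the corticotropin-releasing factor family. It had 15.3, 8.91, 5.07 and 9.84 UMIs per 10000 UMIs in the mafb-rich spots of building 1, building 2, control 1 and control 2, and 2.33, 1.21, 2.03 and 1.80 in their other spots. The groups did not overlap, and ucn was higher in mafb-rich spots in 13 of 13 capture areas, also in both areas with few mafb UMIs. Its log2 fold change was 2.40 ± 0.17 (SE; adjusted p = 4.04e-08).

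vamp1, a membrane protein of synaptic vesicles that takes part in vesicle fusion, had the smallest p of all genes. Its levels were 4.04, 2.49, 1.91 and 2.78 UMIs per 10000 UMIs in mafb-rich spots, in the same order of males, and 0.668, 0.361, 0.435 and 0.525 in other spots. All 4 mafb-rich values were above all 4 other values, with a log2 fold change of 2.52 ± 0.12 (SE; adjusted p = 1.02e-09).

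fst encodes follistatin, which binds activins and blocks them. It had 1.25 and 1.23 UMIs per 10000 UMIs in the mafb-rich spots of building 1 and building 2, but 0.369 and 0.377 in those of control 1 and control 2. In other spots it lay between 0.110 and 0.136. It rose with a log2 fold change of 2.60 ± 0.27 (SE; adjusted p = 2.80e-06).

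Less abundant genes among the 15 with the largest rise were hgfac (log2 fold change 3.10, adjusted p = 1.09e-06), a protease that activates hepatocyte growth factor, pkp3 (3.02, 2.80e-06), a plakophilin of cell junctions, and TRIM29 (LOC101476686; 2.69, 2.84e-07). Each had 73 to 124 UMIs over all mafb-rich spots. hgfac was higher in mafb-rich spots in 8 of 13 capture areas, pkp3 in 9 and TRIM29 in 11. In control 1 the log2 ratios averaged over areas were 0.31 for hgfac and 0.11 for pkp3. A further 8 of the 15 carry no gene name in the sources used here, and their log2 fold changes ran from 2.23 to 2.63. The most abundant of them, LOC101480126, had 6.30, 5.25, 3.02 and 5.44 UMIs per 10000 UMIs in mafb-rich spots and 0.959, 0.610, 1.06 and 0.957 in other spots.

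The 10 genes with the largest fall were nearly absent from mafb-rich spots, most with 1 to 3 UMIs, and a ratio of pooled rates with its exact 95% counting interval is given in place of the fitted fold change. penka (LOC101474395), the precursor of the opioid enkephalin, had 15 UMIs in mafb-rich spots and 6279 in other spots. Its rate per UMI in mafb-rich spots was 4.25% of that in other spots (95% interval 2.37% to 7.01%; adjusted p = 2.40e-09, edgeR), and it was lower in 13 of 13 capture areas. These include area A of control 2, with 0 in mafb-rich and only 0.0445 UMIs per 10000 UMIs in other spots, too few to show a fall. vax1, a homeobox factor of the ventral forebrain, had 1 UMI against 447, a rate of 3.98% (0.1004% to 22.3%). hmcn1, a large protein of the extracellular matrix, had 1 against 602, a rate of 2.95% (0.0746% to 16.5%). unc13b, which primes synaptic vesicles, had 3 against 954, and KCND3 (LOC101464867), a voltage-gated potassium channel, 3 against 891. The remaining 5 carry no name, and the largest of them by UMIs, LOC101480579, had 15 against 6776.

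**Figure D2:**
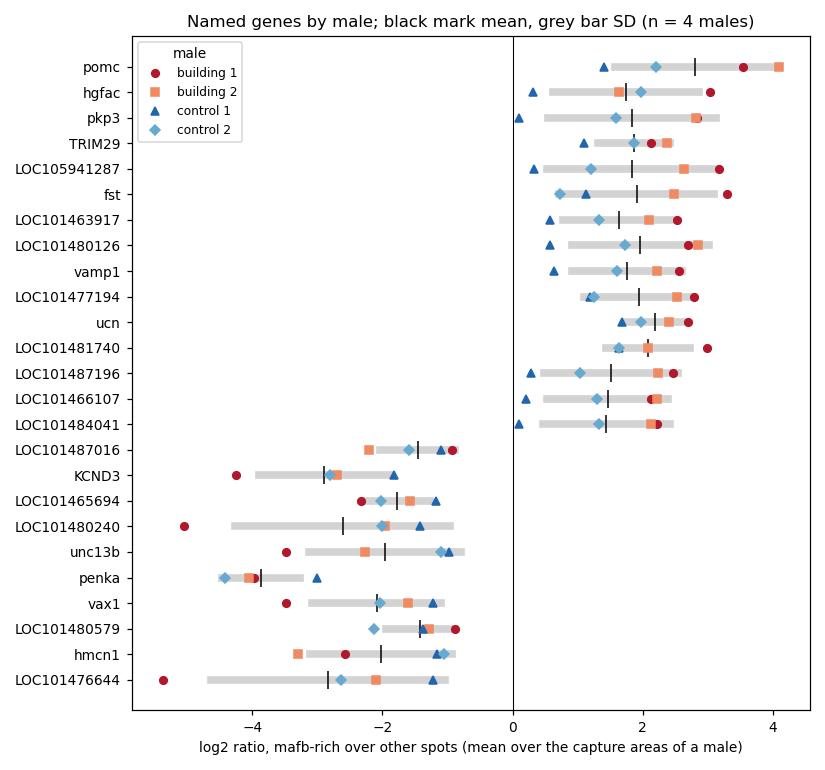
The 15 genes with the largest rise and the 10 with the largest fall, as the log2 ratio of the rate in mafb-rich over other spots (x axis), averaged over the capture areas of a male; symbols are males, the black mark is their mean and the grey bar 1 SD (n = 4). All 25 genes have the same sign in the 4 males, which the choice of genes required, and pomc reaches from 1.40 in control 1 to 4.10 in building 2. With 0 UMIs in mafb-rich spots the ratio lies below 0 wherever other spots hold any, so the sign alone shows no fall there. LOC101480579 in building 1 is such a case, at -0.89 with 0 against 0.0160 UMIs per 10000 UMIs in other spots.

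The rise was uneven between capture areas. pomc was highest in mafb-rich spots of building 2 A (17.0 UMIs per 10000 UMIs), control 2 B (15.2), building 1 C (12.5) and control 2 D (12.4). In 2 of 13 areas it was not higher at all. These were control 1 D, with 0.0512 in mafb-rich and 0.159 in other spots, and control 2 A, with 0.0853 and 0.116. Both are the areas with the fewest mafb UMIs, and the pomc level of their other spots was also the lowest of the 13. vamp1 was at or below the level of other spots in both of these areas and in control 1 C, where the mafb-rich spots held 0 vamp1 UMIs. slc17a7 was higher in 13 of 13 areas.

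**Figure D3:**
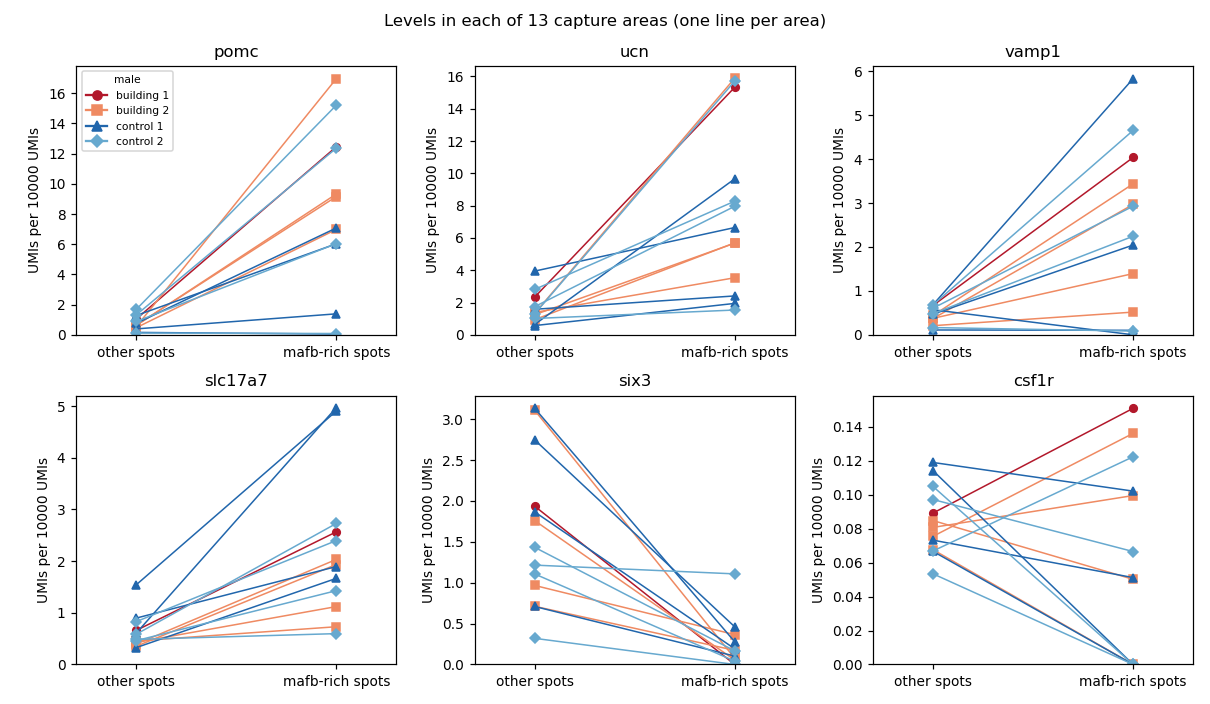
Levels of 6 genes in other spots and in mafb-rich spots of each capture area, in UMIs per 10000 UMIs on linear axes from 0; each line is 1 capture area, coloured by male. pomc, ucn, vamp1 and slc17a7 climb in most areas, six3 falls in 13 of 13, and csf1r, with 21 UMIs in all mafb-rich spots, crosses in both directions.

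Genes of the pallium did not all move together. slc17a7 (LOC101484681) had 2.57, 1.58, 3.30 and 2.00 UMIs per 10000 UMIs in mafb-rich spots of building 1, building 2, control 1 and control 2 and 0.659, 0.407, 0.979 and 0.601 in other spots, with no overlap (log2 fold change 1.86 ± 0.11 SE, adjusted p = 5.2e-09). Over 17 settings its log2 fold change ran from 1.44 to 1.99, with a call in all 17. A second SLC17A7 copy, LOC101482485, moved less, with 0.15 to 0.52 over 17 settings and a call in 3 of them. bhlhe22, a transcription factor of projection neurons in mice, rose by a log2 fold change of 1.26 ± 0.14 (adjusted p = 3.9e-06). slc17a6 rose by 0.30 ± 0.07 (adjusted p = 0.0081), a difference that was -0.04 after thinning to 1000 UMIs. neurod6b (LOC101472195), a factor of pallial neurons, had a log2 fold change of -1.02 ± 0.33 (adjusted p = 0.044). It stood at 0.0755, 0.237 and 0.434 UMIs per 10000 UMIs in mafb-rich spots of building 1, building 2 and control 2, against 0.984, 1.01 and 1.26 in their other spots, but at 1.84 against 1.18 in control 1. That value came from area D of control 1 (3.43 against 1.34), while areas A, B and C of the same male were lower (0.204 against 1.29, 0.765 against 0.940 and 0.833 against 1.04), and the log2 ratio averaged over its areas was -0.40. Area A of control 2 was also higher in mafb-rich spots (2.05 against 1.14). The neurod6b call held in 11 of 17 settings. It was lost without either building male, without control 2, without the male as a block, with DESeq2 and after thinning. eomesa had a log2 fold change of -0.23 ± 0.11 (adjusted p = 0.20). Of the 5 members of the list that were tested, 3 thus rose and 1 fell, beside 7.08% and 6.97% of all genes. The genes tbr1 and emx3 were below the filter on low counts.

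Of 8 subpallial genes tested, 6 fell and none rose, beside 6.97% and 7.08% of all genes. Their median log2 fold change was -1.81 beside -0.01 over all 12369 genes. six3 had 0, 0.152, 0.300 and 0.217 UMIs per 10000 UMIs in the mafb-rich spots of building 1, building 2, control 1 and control 2 and 1.94, 1.69, 1.86 and 1.00 in other spots. It was lower in 13 of 13 capture areas (log2 fold change -3.04 ± 0.25 SE, adjusted p = 2.8e-07). dlx2 fell by 3.20 and dlx5 by 2.17 on the log2 scale. gad2, which makes GABA, fell by 0.62 ± 0.09 (adjusted p = 0.00015), and its log2 fold change was 0.09 after thinning to 1000 UMIs. GABAergic RNA was still present, with 2.47 to 4.33 gad2 UMIs per 10000 UMIs in the mafb-rich spots of the 4 males against 4.62 to 6.92 in other spots.

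Interneuron genes fell for the most part. Of 11 tested, 8 fell and 1 rose, beside 6.97% and 7.08% of all genes, with a median of -1.52. After thinning 2 of 8 were lower and 1 higher, beside 0.985% and 0.851% of all genes, with a median of -0.45. The log2 fold changes of etv1 (0.34) and of the SST copy LOC101486892 (0.09) had the opposite sign there, without a call. The peptide genes sst (LOC101485677) and npy fell by 2.85 and 2.79 on the log2 scale (adjusted p = 3.5e-06 and 9.8e-07). The spread of npy between males was wide, with 0.264, 4.58, 4.10 and 0.583 UMIs per 10000 UMIs in mafb-rich spots and 7.37, 31.6, 11.2 and 9.28 in other spots. The member that rose was pvalb7 (LOC101487165), a parvalbumin that binds calcium, at 6.19, 5.14, 2.998 and 5.45 against 1.49, 0.908, 1.02 and 1.16 UMIs per 10000 UMIs (log2 fold change 2.14 ± 0.12 SE, adjusted p = 5.2e-09).

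The neuromodulator and transmitter genes split into both directions, with 9 of 28 higher and 15 lower, beside 7.08% and 6.97% of all genes, and a median of -0.98. After thinning 6 of 22 were higher and 4 lower, beside 0.851% and 0.985% of all genes. The median was 0.09, so the balance of directions did not hold there. gad2, slc17a7, npy and both SST copies are counted here and in a list above. Beside pomc, ucn and slc17a7, those that rose included adcyap1, which encodes the peptide PACAP (log2 fold change 1.08 ± 0.10, adjusted p = 1.3e-06), the growth factor bdnf (1.01 ± 0.13, adjusted p = 2.35e-05) and the peptide cck (LOC101483958; 0.70 ± 0.07, adjusted p = 1.9e-06). cck was the most abundant of these, at 27.1 to 32.1 UMIs per 10000 UMIs in mafb-rich spots of the 4 males and 14.7 to 22.4 in other spots. The dopamine genes th and slc6a3, the synthesis enzyme and the transporter, fell to 7.21% (95% interval 1.96% to 18.5%) and 10.6% (5.63% to 18.1%) of the pooled rate in other spots. tac1, a tachykinin precursor, fell by 2.81 on the log2 scale (adjusted p = 5.9e-07).

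Receptors of neuromodulators showed 12 higher and 10 lower among 57 tested, with a median of -0.04. Of all genes, 7.08% were higher and 6.97% lower. Without building 2 the counts were 5 and 5 of 58, beside 3.73% and 3.52% of all genes. Without control 2 they were 5 and 5 of 57, beside 3.68% and 3.69%. Without building 1 they were 8 and 6 of 60, beside 5.36% and 5.48%. Without control 1 they were 14 and 16 of 56, beside 9.15% and 9.66%. After thinning they were 0 and 1 of 21, beside 0.851% and 0.985%. The muscarinic receptor chrm5 rose by 1.49 ± 0.19 on the log2 scale (adjusted p = 2.9e-05), the serotonin receptor HTR4 (LOC101474236) by 1.48 ± 0.28 (0.0010) and the mineralocorticoid receptor NR3C2 (LOC101465385) by 1.28 ± 0.31 (0.0082). In control 1 NR3C2 stood at 0.115 UMIs per 10000 UMIs in mafb-rich and 0.181 in other spots, against the direction of the other 3 males. The NR3C2 call held in 12 of 15 settings. It was lost without building 2, without control 2 and without the male as a block. galr1, a galanin receptor, rose by 0.98 ± 0.29 (0.030), but had 0.529 and 0.490 UMIs per 10000 UMIs in mafb-rich spots of the building males and 0.161 and 0.149 in those of the control males, where other spots had 0.194 and 0.152. The galr1 call held in 8 of 15 settings. It was lost without either building male, and also against the other spots nearest in total UMIs and without the male as a block. The dopamine receptor genes drd1 (LOC101477361) and drd2 fell by 1.76 and 1.92. The drd1 call held in 8 of 14 settings. Second copies of HTR4 (LOC101474761), NR3C2 (LOC101466282) and DRD2 (LOC101472921) were not among the genes called.

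Telencephalic transcription factors were mostly lower. This list shares members with lists above, so its counts are not a separate result. dlx2, dlx5, six3, sp9, lhx6, neurod6b and bhlhe22 also stand in the pallial or subpallial list. etv1 and lhx6 stand in the interneuron list and hes1 in the radial glia list. Of 34 tested, 19 fell and 2 rose, beside 6.97% and 7.08% of all genes, with a median of -0.87, and the summed list was lower in 13 of 13 areas. After thinning 4 of 18 fell and 1 rose, beside 0.985% and 0.851% of all genes, with a median of -0.28. meis2, a factor of the subpallium, fell by 2.98 on the log2 scale (adjusted p = 2.1e-07). neurod1 and lhx9, which mark other groups of excitatory neurons in vertebrate brains, fell by 2.49 and 2.47 (adjusted p = 0.0020 and 0.0019), with 6 and 7 UMIs in all mafb-rich spots. The 2 that rose were bhlhe22 and insm1, a zinc finger factor of neuroendocrine and newborn neural cells, at 0.793, 0.803, 0.184 and 0.777 UMIs per 10000 UMIs in mafb-rich spots against 0.110, 0.152, 0.123 and 0.240 in other spots (log2 fold change 2.03 ± 0.23 SE, adjusted p = 9.0e-06).

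The Maf, AP-1 and CNC factors are the relatives with which a Maf protein can pair. Of 8 tested, 2 rose and 1 fell, beside 7.08% and 6.97% of all genes. batf and fosl2 rose by 1.16 ± 0.13 and 0.75 ± 0.12 on the log2 scale (adjusted p = 7.9e-06 and 0.00033). After thinning 0 of 5 were called, beside 0.851% higher and 0.985% lower of all genes, with batf at 0.58 and fosl2 at 0.11. jund fell by 0.50 ± 0.13 (adjusted p = 0.011), with a call in 12 of 17 settings. Both fosl2 and jund are also counted among the immediate early genes. mafk, a small Maf protein, had 18 UMIs in mafb-rich spots and a log2 fold change of 0.65 ± 0.44 (adjusted p = 0.425).

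Immediate early genes, which neurons transcribe after excitation, were mostly higher. The list of 25 such genes was drawn up by the study from its single-nucleus data. Of these, 15 rose and 1 fell, beside 7.08% and 6.97% of all genes, with a median log2 fold change of 0.62. The summed list was higher by 0.60 ± 0.26 (SD, n = 4 males, in 11 of 13 areas). dusp5, a phosphatase that turns off ERK, had 3.66, 3.06, 1.57 and 2.97 UMIs per 10000 UMIs in mafb-rich spots and 0.659, 0.626, 0.649 and 0.722 in other spots (log2 fold change 2.07 ± 0.14 SE, adjusted p = 3.7e-08). egr1, a factor that is induced quickly after excitation, had 8.19, 6.08, 4.52 and 8.59 against 3.49, 2.84, 3.34 and 3.17 (1.09 ± 0.12, adjusted p = 4.6e-06). GPR12 (LOC101482685) and ITM2C (LOC101486362), an orphan receptor and a membrane protein, rose by 1.78 and 1.77. The FOS copies split, with LOC101487601 at 0.89 ± 0.18 (adjusted p = 0.0020) and LOC101487312 at 0.03 ± 0.14 (adjusted p = 0.93), and npas4 rose by 0.48 ± 0.15 (adjusted p = 0.035). The npas4 call held in 10 of 17 settings, and was lost against the other spots nearest in total UMIs. Against the 3 other spots nearest in total UMIs, 12 were higher and 2 lower of 24 tested, beside 7.34% and 7.13% of all genes. After thinning to 1000 UMIs 4 were higher and 1 lower of 24, beside 0.851% and 0.985% of all genes.

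**Figure D4:**
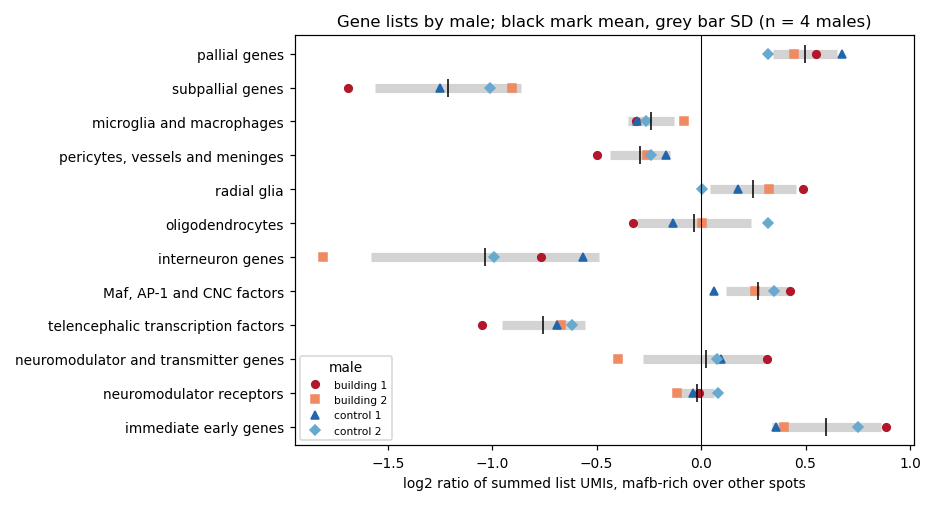
The 12 gene lists as the log2 ratio of summed list UMIs per total UMIs in mafb-rich over other spots (x axis); symbols are males, the black mark is the mean and the grey bar 1 SD (n = 4). Pallial (0.50) and immediate early genes (0.60) lie above 0 in all 4 males, and subpallial genes (-1.21), interneuron genes (-1.03) and telencephalic transcription factors (-0.76) below 0 in all 4. By smaller amounts, radial glia (0.25) and Maf, AP-1 and CNC genes (0.27) also lie above 0 in all 4. Microglia (-0.24) and vessel genes (-0.29) also lie below 0 in all 4. Some genes stand in several lists.

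No macrophage gene passed the test as higher in mafb-rich spots, a count that does not stand apart from the share over all genes. Of 29 microglia and macrophage genes listed, 17 were in the feature table and 14 passed the filter on low counts. None rose and 1, apoeb (LOC101466239), fell by 0.34 ± 0.08 on the log2 scale (adjusted p = 0.0077), beside 7.08% and 6.97% of all genes, with a median of -0.13. The apoeb call held in 13 of 17 settings. csf1r, the receptor that microglia need to survive, had 21 UMIs in mafb-rich spots and 404 in other spots, and its pooled rate in mafb-rich spots was 92.4% of that in other spots (95% interval 56.6% to 143%; adjusted p = 0.92). spi1, a master factor of myeloid cells, had 8 against 191 UMIs, a rate of 74.4% (31.7% to 150%). mpeg1, a macrophage marker, had 0 UMIs in mafb-rich spots, which allows up to 0.0109 per 10000 UMIs, and 0.00469 per 10000 UMIs in other spots, so a difference was not detectable at this depth. The summed list made 10.3 to 13.2 UMIs per 10000 UMIs in mafb-rich spots of the 4 males and 13.1 to 14.5 in other spots. Its log2 ratio was -0.24 ± 0.11 (SD, n = 4 males), below 0 in all 4 males and in 9 of 13 areas, and was not tested. The 95% intervals above cover counting error only. The spots with a single mafb UMI stood apart here, with 12.5 ± 7.96 apoeb UMIs per 10000 UMIs (SD, n = 4 males) against 4.41 ± 3.04 in those with 2 and 4.26 ± 0.505 in those with 3 or more. Their csf1r level was 0.694 ± 1.32, against 0 and 0.0533 ± 0.0441, and the spread is as wide as these differences. In the subpallial mafb-rich spots apoeb stood at 9.90 UMIs per 10000 UMIs and in subpallial other spots at 7.20, pooled over spots and not tested.

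As whole lists, other cell types moved by at most 0.29 on the log2 scale in the mean over males. Radial glia genes had a log2 ratio of 0.25 ± 0.21 (SD, n = 4 males), at 38.4 to 52.5 UMIs per 10000 UMIs in mafb-rich spots and 32.4 to 38.6 in other spots. Of 13 tested, 2 were higher and 2 lower, beside 7.08% and 6.97% of all genes. GLUL (LOC101463785), the glutamine synthetase of glia, rose by 0.47 ± 0.07 (adjusted p = 0.00020). cyp19a1 (LOC106675461), the brain aromatase of radial glia, fell by 3.46 ± 0.25 (adjusted p = 7.2e-08), and hes1, a target of Notch, fell by 0.81. The hes1 call held in 12 of 16 settings. Oligodendrocyte genes had a ratio of -0.03 ± 0.27, at 4.91 to 13.99 UMIs per 10000 UMIs in mafb-rich and 6.15 to 12.7 in other spots. Of 11 tested, 1, olig1, fell, beside 6.97% of all genes, and its call held in 9 of 16 settings. Genes of pericytes, vessels and meninges had a ratio of -0.29 ± 0.14, at 2.65 to 2.998 against 3.43 to 3.90 UMIs per 10000 UMIs. Their sum was lower in 11 of 13 areas. Of 13 tested, 3 were lower, beside 6.97% of all genes, and 0 were lower without building 2. hspg2, a proteoglycan of the basement membrane, was among those and fell by 1.91 (adjusted p = 0.0019). No symbol of the red blood cell list matched the feature table, where many genes carry only a LOC identifier, so these genes were not analysed here. The part of region or cell number in these differences was not tested beyond the comparison within pallial spots.

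Because mafb-rich spots were mostly pallial, the comparison was repeated among pallial spots alone, 257 mafb-rich and 3483 others. Of 11088 genes tested, 1173 (10.6%) were called, 638 (5.75%) higher and 535 (4.83%) lower. In all, 1065 genes were called both here and over all spots, each with the same sign. The pallial spots are part of the spots of the first comparison, so this sharing is not independent of it. The 5 genes with the largest rise there were pomc (log2 fold change 2.90 ± 0.21 SE, adjusted p = 1.31e-06), hgfac (2.66), pkp3 (2.45), vamp1 (2.38 ± 0.14, adjusted p = 3.26e-07) and TRIM29 (2.29). ucn rose by 1.86 ± 0.18 (adjusted p = 9.23e-06), pvalb7 by 2.06 and dusp5 by 1.93. Genes of the 2 lists that set the class are not read here.

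The 5 genes with the largest fall within pallial spots included TSHZ1 (LOC101468472), a zinc finger factor, with 3 UMIs in mafb-rich and 462 in other pallial spots, a rate of 7.91% (95% interval 1.63% to 23.3%). LOC101486047 had 0 UMIs against 296, at least 8.10-fold lower when 3 counts over all mafb-rich pallial spots are taken as the floor. LOC101466989 had 19 against 2156, a rate of 10.7% (6.45% to 16.8%), and LOC101476499 and LOC101470678 had 4 and 5 UMIs. sst and npy fell in pallial spots as well, by 2.60 and 2.57 on the log2 scale (adjusted p = 1.3e-06 and 3.3e-07), as did cyp19a1 by 2.26 and penka by 1.78 (adjusted p = 0.00778), a 3.43-fold difference beside 23.4-fold over all spots. Of the 24 immediate early genes tested there, 15 rose and none fell, beside 5.75% and 4.83% of all genes, with a median of 0.64. Without control 2 there were 429 calls in this comparison, without building 2 558 and without building 1 727.

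The 41 subpallial mafb-rich spots carried less of the leading genes. Pooled over spots, pomc stood at 2.12 UMIs per 10000 UMIs in them and at 10.7 in the 257 pallial ones, and ucn at 1.70 and 10.1. vamp1 was at 1.11 and 2.84. Each was nonetheless above its level in subpallial other spots, which was 0.184 for pomc, 0.252 for ucn and 0.345 for vamp1. No test was run on these pooled values.

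The mafb-rich spots varied among themselves. Genes pomc, pvalb7, vamp1, ucn and antxr2, chosen after their values were seen, were counted in each spot. All 5 had a UMI in 103 of 321 mafb-rich spots and in 124 of 6303 other spots, and none had one in 53 and 2289. Per male, 50.7% ± 20.4 of mafb-rich spots and 6.49% ± 3.39 of other spots held at least 4 of the 5 (SD, n = 4 males). Depth bears on such shares, so they were also taken after each spot was thinned to 1000 UMIs. A pomc UMI was then found in 40.0% ± 11.4 of mafb-rich and 5.87% ± 1.49 of other spots, and before thinning in 65.2% ± 17.0 and 20.9% ± 7.70. For csf1r the thinned shares were 1.96% ± 2.29 and 0.951% ± 0.179, and for gad2 31.7% ± 9.54 and 34.5% ± 3.06.

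The spots with a single mafb UMI differed from those with more. In the 83 mafb-rich spots with 1 mafb UMI, pomc had 0.720 ± 0.150 UMIs per 10000 UMIs (SD, n = 4 males), in the 45 with 2 it had 6.55 ± 6.37 and in the 193 with 3 or more 11.2 ± 3.06. vamp1 had 0.526 ± 0.447, 0.967 ± 1.22 and 3.82 ± 0.870, and pvalb7 0.989 ± 0.833, 2.94 ± 1.85 and 6.30 ± 0.395. The pallial share of these spots was 56.6%, 82.2% and 89.6%. Their median depth also differed, at 3434, 5739 and 11070 UMIs, and a deeper spot can show more mafb UMIs, so the number of mafb UMIs and depth moved together.

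Over bands of mafb rate the mean levels of the leading genes were higher in each step, given here as a description. From spots with 0 mafb UMIs to spots with mafb below the highest 10%, the band from 5 to 10%, that from 2 to 5% and the highest 2%, pomc had 0.522 ± 0.153, 1.97 ± 0.958, 4.34 ± 1.72, 8.35 ± 4.28 and 10.98 ± 4.39 UMIs per 10000 UMIs (SD, n = 4 males). vamp1 went from 0.351 ± 0.0407 to 3.45 ± 0.249 and dusp5 from 0.568 ± 0.0488 to 3.44 ± 0.364 between the ends. six3 went the other way, from 1.82 ± 0.487 to 0.124 ± 0.136, and penka from 1.64 ± 0.588 to 0.0541 ± 0.0725. csf1r was at 0.0864 ± 0.00835 and 0.0568 ± 0.0795. For pomc the highest 2% and the band from 2 to 5% differed by less than the SD of either. The bands from 2 to 5% and 5 to 10% differed by less than the SD of the upper one. Spots with mafb below the highest 10% were the deepest, with a median of 11513.5 UMIs, and had less pomc than the shallower bands above them.

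**Figure D5:**
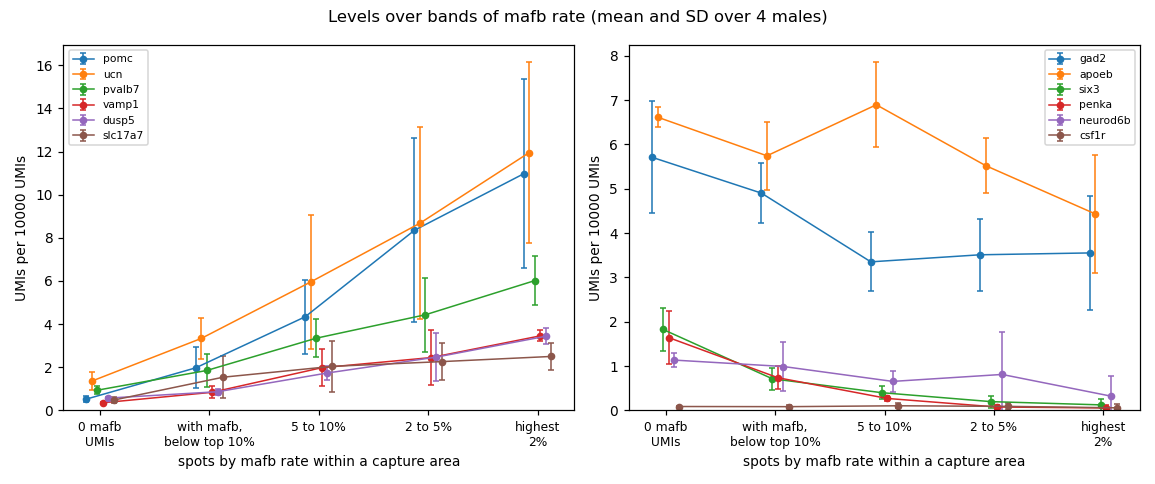
Levels of 12 genes over bands of mafb rate, from spots with 0 mafb UMIs to the highest 2% of each capture area (x axis), in UMIs per 10000 UMIs (y axis, linear from 0); points are means over 4 males and bars 1 SD. pomc climbs from 0.522 to 10.98 and vamp1 from 0.351 to 3.45, and six3 and penka drop to 0.124 and 0.0541.

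At equal depth pomc, ucn and slc17a7 kept this order in their means, while for dusp5, insm1 and fst the group with 2 mafb UMIs held too few UMIs to tell. After thinning to 1000 UMIs, 6225 spots had 0 mafb UMIs, 185 had 1, 20 had 2 and 3 had 3 or more. pomc stood at 0.959 ± 0.184, 4.23 ± 1.99 and 17.8 ± 15.5 UMIs per 10000 UMIs in the first 3 groups (SD, n = 4 males), ucn at 1.64 ± 0.497, 5.12 ± 1.74 and 10.4 ± 9.48, and slc17a7 at 0.499 ± 0.148, 1.60 ± 0.781 and 2.92 ± 2.76. The spread in the group with 2 mafb UMIs is nearly as wide as its mean. dusp5 stood at 0.653 ± 0.0767, 1.31 ± 0.512 and 1.25 ± 1.44, and its last 2 means differed by less than their spread. With 0 and with 1 mafb UMI, insm1 stood at 0.184 ± 0.0818 and 0.480 ± 0.451, and fst at 0.124 ± 0.0457 and 0.450 ± 0.354. Both had 0 UMIs in the 20 spots with 2, which cannot show a fall from levels this low, since each spot held 1000 UMIs. six3 stood at 1.53 ± 0.333 with 0, at 0.225 ± 0.262 with 1 and at 1.13 ± 1.31 with 2 mafb UMIs. With 0 and with 1, gad2 (5.03 ± 0.656 and 5.37 ± 2.22) and csf1r (0.109 ± 0.0169 and 0.112 ± 0.130) differed by less than their spread.

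To compare mafb-rich spots with other spot sets, the same 5% rule was applied to other genes. Spots rich in pomc, a gene chosen after its values were seen, shared 137 spots with mafb-rich spots, which is 42.2% of 325 pomc-rich and 42.7% of 321 mafb-rich spots. Genes ucn, pvalb7 and vamp1 were also chosen after their values were seen. For ucn the shares were 29.2% and 29.6%, for pvalb7 26.8% and 27.1%, and for vamp1 26.6% and 26.8%. All of these genes had been called higher in mafb-rich spots, so a large overlap was built into their choice. Per male, 3.68% ± 0.494 of other spots were ucn-rich, 3.80% ± 0.303 pvalb7-rich and 3.78% ± 0.180 vamp1-rich (SD, n = 4 males). Spots rich in eomesa shared 8 spots (2.67% of eomesa-rich and 2.49% of mafb-rich spots), those rich in neurod6b 10 (3.08% and 3.12%) and those rich in six3 2 (0.615% and 0.623%). Averaged per male, 3.02% ± 1.68 of mafb-rich and 4.56% ± 0.536 of other spots were eomesa-rich (SD, n = 4 males). These shares were 3.28% ± 2.99 and 4.98% ± 0.162 for neurod6b, and 0.556% ± 0.680 and 5.11% ± 0.0386 for six3. The mean differences for eomesa (-1.54 ± 1.82) and neurod6b (-1.70 ± 3.15) were smaller than their SD. Spots rich in csf1r shared 13 (4.50% and 4.05%). Per male, 4.27% ± 2.43 of mafb-rich and 4.27% ± 0.853 of other spots were csf1r-rich, and 40.3% ± 10.97 and 3.07% ± 0.555 were pomc-rich (SD, n = 4 males).

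Building and control males were then compared within the mafb-rich spots. Over all spots kept, the mafb level was 0.544 UMIs per 10000 UMIs on average in building males and 0.427 in control males, a difference of 0.117 (exact permutation test of 2 against 2 males, two-sided, p = 1.00, where the smallest p this design allows is 0.333). Without building 1 the difference was -0.101, so its direction rested on that male. In mafb-rich spots, 0 of 8531 genes (0%) passed an adjusted p of 0.05 (edgeR), while 310 had an unadjusted p under 0.05, and DESeq2 called 0 as well. With no filter on low counts 36 genes passed, and without building 2 and without control 2, which leaves 1 male in a group, 23 and 141. First in the order of p were fst, LOC101480985 and LOC101484294.

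fst, picked by its smallest p of all genes tested, was higher in building males by 1.72 ± 0.29 on the log2 scale (edgeR quasi-likelihood test over all genes, adjusted p = 0.354). Its mafb-rich values were 1.25 and 1.23 in building males against 0.369 and 0.377 UMIs per 10000 UMIs in control males. The adjusted p lay under 0.05 with no filter (0.000841), without building 2 (0.0448) and without control 2 (0.00914), and DESeq2 gave 1.00. The fst levels in other spots were 0.110 and 0.136 in building males and 0.113 and 0.131 in control males. LOC101480985 had 0 UMIs in the mafb-rich spots of building males and 36 in those of control males, at least 13.3-fold lower with 3 counts over the group as the floor (adjusted p = 0.397). Its other spots showed the same order, at 0.00916 and 0.00418 UMIs per 10000 UMIs in building males and 0.118 and 0.316 in control males. LOC101484294 stood at 0.415 and 0.727 UMIs per 10000 UMIs in building males and 6.04 and 1.55 in control males (log2 fold change -2.57 ± 0.51, adjusted p = 0.594), and in capture area C alone its difference was -0.02.

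Whether the contrast between mafb-rich and other spots itself differed between conditions was tested as an interaction. mafb, which the rule used, was among the 12370 genes of this test and the 8531 compared within mafb-rich spots. Its values in both are not read. LOC101484294 was the 1 gene of 12370 called (0.00808%), with a log2 difference of -2.30 ± 0.35 between building and control males (adjusted p = 0.0320, edgeR; DESeq2 also called 1 gene). Its other spots held 1.27 and 2.77 UMIs per 10000 UMIs in building males and 2.81 and 1.95 in control males. Pooled over areas control 1 stood above its other spots, but its log2 ratio averaged over areas was -0.21, and the gene was lower in mafb-rich spots in 10 of 13 areas. Without building 2 the adjusted p was 0.135. LOC101483902 and elavl4 (LOC101470924), a neuronal RNA-binding protein, came next (both adjusted p = 0.0901). For pomc, whose ratio was lower in control males, the interaction was 1.24 ± 0.26 (adjusted p = 0.124). Building 1 had capture area C alone, so differences between males and between levels of the brain cannot be told apart in these comparisons.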

How the data were processed

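Per the labels, barcoded Visium sections of 4 males were sequenced, and the deposited matrices hold raw UMI counts per gene and spot that the authors made with Space Ranger 1.3.1, with no normalization. Spots with at least 500 UMIs were kept. Depth differed between capture areas, which limits low transcripts most. mafb-rich spots were chosen as described, and the members and gene lists were chosen with earlier results of these data known. UMIs were summed per male and spot class and tested with edgeR 4.0.16 (TMM, filter on low counts, quasi-likelihood test, male as block, Benjamini-Hochberg adjustment at 0.05) in R 4.3.3, and with DESeq2 1.42.0 as an alternative. Spots are not replicates. The 4 males are separate animals, with 2 in each condition. Levels are UMIs per 10000 UMIs, pooled over the spots of a male, except that mafb levels over all spots, median depths, shares of spots and log2 ratios per male are means over capture areas. The log2 ratio per capture area adds 0.5 UMIs to the mafb-rich side. Named genes were the 15 with the largest rise and the 10 with the largest fall among those called, with at least 200 UMIs and 1 sign in the 4 males, the 5 largest each way in pallial spots, the 3 smallest p between conditions where none passed, and members of the lists. Same-numbered males of both conditions deviated with a correlation of 0.0669 over 8531 genes (2 pairs), which cannot show whether the numbers mark the size-matched pairs. The fit with the replicate number as a block is given as an alternative. Alternatives were other thresholds, thinning to 1000 UMIs, the 3 other spots nearest in total UMIs, no filter, no TMM and leaving out each male. The tests were also run on simulated data, and the outcome is not given here. Shares and levels used numpy 2.4.6, pandas 2.3.3 and scipy 1.17.1. No doublet caller was run, since a spot is not a cell.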

Additional observations from a re-analysis of the deposited data

Results flagged for a closer look

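The summed telencephalic transcription factors had a log2 ratio of mafb-rich over other spots of -1.05 in building 1, apart from the other 3 males, which lay between -0.69 and -0.62. LOC101480240 had a log2 ratio of -5.06 in building 1, where the mafb-rich spots held 0 UMIs of it, and between -2.01 and -1.42 in the other 3 males. Of 43 groups of 4 males looked at in this way, 2 had a male this far from the rest, and chance gives about 1 in 20. The contrast of LOC101484294 between mafb-rich and other spots differed between building and control males by -2.30 on the log2 scale (edgeR, adjusted p = 0.0320), and by -1.55 without control 1.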

How the results depend on the processing

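Of 371 values of the 25 genes with the largest change under the alternatives, 364 kept their direction and their call, 7 kept the direction and lost the call, and none reversed. These 25 were chosen by call, size and sign in the main fit of the same data, which favours such a tally. For 44 members of the gene lists, 644 of 721 values stayed the same, 74 were weaker and 3 reversed. After thinning 13 of 34 values of these members stayed the same. Not every gene could be tested under each alternative, and after thinning 6 of the 25 were. Against 1738 calls over all spots there were 123 after thinning and 1013 with no replicate block (male not in the model), and 889 to 2326 when 1 male was left out. Against 1173 calls in pallial spots DESeq2 made 741, and leaving out 1 male gave 429 to 1668. Between conditions, where 0 genes were called, no filter gave 36 and leaving out 1 male 0 to 141. With the replicate number as a block the count was 0. For the difference between conditions in the contrast, with 1 call, no filter gave 49 and leaving out 1 male 2 to 183. Leaving out a male leaves 1 in an arm, which is assumed to vary like the others. Thinning turned slc17a6 to -0.0357, gad2 to 0.0872 and hspg2 to 0.0484. It moved the summed subpallial list to -0.56 and the vessel list to -0.62. With the highest 2% of spots the pallial list was 0.34 and the microglia list -0.45. With at least 2 mafb UMIs the microglia list was -0.43, the vessel list -0.53 and the oligodendrocyte list -0.34. The causes were not tested. The setting without areas D of control 1 and A of control 2, and the scaling without TMM between conditions, were chosen after seeing the data.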
